A study of Homo sapiens with 4 samples.

Results

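The genes described here encode the aminoacyl-tRNA synthetases of the cytosol and of mitochondria in U87MG, an established human glioblastoma cell line. The members were given by name, 35 genes in all among the 18132 genes with a probe set of 1 gene symbol on the array, and all 35 were found. Of these, 16 have a symbol ending in 2 and are the mitochondrial enzymes here, and the other 19 are the cytosolic ones. The genes for aspartyl-tRNA synthetases were not analysed here. Each gene was read through the probe set with the highest mean log2 signal.

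The cells were kept for 24 h with 10 µM mycophenolic acid (MPA), with 100 µM guanosine, with both compounds, or with DMSO as the control. All 4 conditions used the same line in the same medium, DMEM with fetal bovine serum. MPA blocks IMP dehydrogenase, which makes guanine nucleotides from IMP, while cells can build the same nucleotides from added guanosine by salvage, so the comparisons ask what MPA does and whether guanosine alters it. Total RNA of each condition was hybridised to 1 Affymetrix PrimeView array, so there are no replicates, no p-value can be given, and each difference is between 2 arrays.

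An aminoacyl-tRNA synthetase joins one amino acid to the tRNAs that carry it, the step at which the genetic code is read into protein. Cytosolic and mitochondrial ribosomes draw on largely separate sets of these enzymes, all encoded in the nucleus. GARS1 and KARS1, the glycyl and lysyl enzymes, are made in forms for both compartments, and mitochondria charge glutamine tRNA by way of glutamate and an amidotransferase. Several cytosolic enzymes sit together in a multisynthetase complex with scaffold proteins such as AIMP1. Genes of many cytosolic enzymes are targets of ATF4, the transcription factor of the amino acid response, and are turned up when amino acids run short.

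Signals are RMA values on the linear scale and differences are on the log2 scale. A gene was compared where the brighter of 2 arrays reached a floor of 63.0, the median of all non-control values, and all 35 synthetase genes were above it on all 4 arrays. The MPA array correlated with the other 3 at r = 0.988 to 0.990 over all probe sets, and those 3 with each other at 0.997 to 0.998. The poly-A spike-in transcripts were lower on the MPA array than on the control array in all 12 probe sets. Their median log2 difference from control was -0.29 on the MPA array, 0.22 on the guanosine array and 0.27 on the array of both. The log2 gap between the 3′ and 5′ probe sets of ACTB, a sign of RNA integrity, was 1.72 on the MPA array, 1.77 with guanosine, 1.89 with both and 1.82 in the control. The part of these values in the differences below was not tested. With no replicates, the nearest gauge of spread is the pair of most alike arrays, those with both compounds and with guanosine, whose differences had an SD of 0.10 over all genes, any effect of MPA beside guanosine included. Because this pair was picked as the most alike, its SD may understate the spread between arrays. The median difference of all genes was 0.01 for MPA against control and -0.0011 for guanosine against control. Of the glioma and astroglial markers, VIM and CD44 were bright, at 18322 to 20014 and 5811 to 6286, GFAP and NES were above the floor, and SOX2, S100B and AQP4 were below it on every array. OLIG2 lay near the floor, at 56.4 with MPA, 53.4 with guanosine, 68.0 with both and 63.4 in the control. PTPRC and CD14 of leukocytes, CDH1 of epithelium, CDH5 of endothelium and MBP of oligodendrocytes were below the floor on all arrays. The epithelial gene EPCAM had a signal of 102 with MPA, 52.9 with guanosine, 54.9 with both and 55.5 in the control, the endothelial gene PECAM1 78.7 with MPA, 54.6 with guanosine, 53.6 with both and 64.2 in the control and the neuronal gene RBFOX3 67.3 with MPA, 50.5 with guanosine, 50.8 with both and 55.4 in the control, each highest with MPA. Their part in the differences was not tested.

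With MPA alone, mRNAs of most cytosolic synthetases were below control by small amounts, while the mitochondrial ones spread further in both directions. Of the 19 cytosolic genes, 17 were lower on the MPA array and 2 were higher, with a median log2 difference of -0.19, none of them as large as 1.5-fold. Of the 16 mitochondrial genes, 10 were lower and 6 higher, with a median of -0.11. Among all 11204 genes compared, 49.1% were lower by any amount, 7.31% at least 1.5-fold lower and 5.31% at least 1.5-fold higher. The mitochondrial group held 3 genes past 1.5-fold below control and 1 past it above, and the cytosolic group 0 and 0. Among them MARS2, NARS2 and AARS2 were dim, below 244 on both arrays. A stricter floor of 244, the 75th percentile of non-control values, kept all 19 cytosolic but only 10 of the 16 mitochondrial genes. With that floor only RARS2 was past 1.5-fold below control, and 0 genes were past it above. When the arrays were normalised further by cyclic loess, 12 cytosolic genes were lower and 7 higher, with a median of -0.12, since EPRS1, IARS1, NARS1, TARS1 and WARS1 turned to values just above 0. The mitochondrial counts were then 10 lower and 6 higher, with a median of -0.05 and 2 genes past 1.5-fold below control, and 45.1% of all genes were lower, with a median of 0.04. The cytosolic median minus the mitochondrial one on the values as deposited was -0.08.

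**Figure D1:**
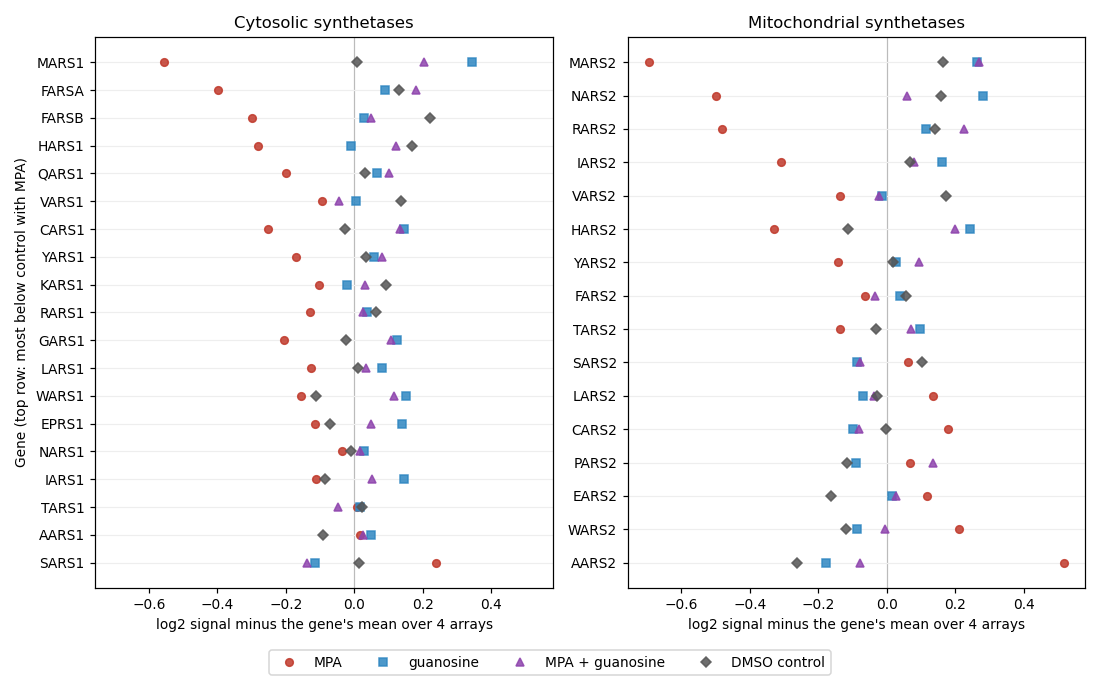
Log2 signal of each synthetase gene on each of the 4 arrays, relative to the gene's own mean over the 4 arrays, with cytosolic genes on the left and mitochondrial genes on the right. Each point is 1 array. The MPA points lie below the other 3 for 16 of 19 cytosolic genes and 9 of 16 mitochondrial genes, and above them for 1 and 5. After cyclic loess, which is not drawn, they were lowest for 11 of 19 and 8 of 16.

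The position of the MPA array against the other 3 shows the same members one by one. For 16 of the 19 cytosolic genes, 84.2%, the MPA signal was the lowest of the 4 arrays, and for SARS1 it was the highest. Among the mitochondrial genes it was the lowest for 9 of 16 and the highest for 5. Over all 11272 genes that reached the floor on some array, the MPA signal was the lowest for 41.7% and the highest for 41.3%. After cyclic loess it was the lowest for 11 of 19 cytosolic genes, 57.9%, for 8 of 16 mitochondrial genes and for 36.1% of all genes. The span of the other 3 arrays had a median of 0.14 over the synthetases, against 0.14 over all genes. With the MPA array included, the median span was 0.26 for cytosolic and 0.29 for mitochondrial genes, below the 0.32 of all genes.

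MARS2, the mitochondrial methionyl-tRNA synthetase, was the member furthest below control. Its signal was 128 on the MPA array, 248 with guanosine, 249 with both compounds and 231 in the control. Only the MPA array stood low, at 0.551 times the control (log2 -0.86), and the array with both compounds matched that with guanosine, with a difference of 0.0044. Its other probe sets were below the floor. The methionyl enzyme of the cytosol, MARS1, had a signal of 281 on the MPA array, 524 with guanosine, 477 with both compounds and 416 in the control. It too was lowest with MPA (log2 -0.57 against control), and its highest value was with guanosine. A second MARS1 probe set gave -0.57, and the other bright one gave 0.04, with nearly level signals of 151 with MPA, 148 with guanosine, 145 with both and 147 in the control. The MARS1 probe sets therefore disagree, and the main one is of a type that may also bind other transcripts.

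The promoter of MARS2, the member furthest from control, and those of 2 members that hold the element bound by ATF4 are shown for the letters they carry. Sequences are the 250 bases before the annotated start, from RefSeq on GRCh38.p14, written 5′ to 3′ on the gene's strand, and capitals mark the motifs TGATGNAA, the composite element that ATF4 and CEBP proteins bind, and CACGTG, the E-box of MYC and related factors. Both motifs were searched on both strands. The matches to TGATGNAA in IARS1 and AARS1 are on the other strand and read TTGCATCA, and the motifs do not overlap in these windows.
MARS2, chr2:197705119-197705368, + strand: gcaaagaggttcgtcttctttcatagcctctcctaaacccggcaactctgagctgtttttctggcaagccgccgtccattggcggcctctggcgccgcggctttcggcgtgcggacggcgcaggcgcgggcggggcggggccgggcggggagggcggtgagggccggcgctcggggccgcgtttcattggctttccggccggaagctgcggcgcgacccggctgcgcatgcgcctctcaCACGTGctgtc
IARS1, chr9:92293698-92293947, - strand: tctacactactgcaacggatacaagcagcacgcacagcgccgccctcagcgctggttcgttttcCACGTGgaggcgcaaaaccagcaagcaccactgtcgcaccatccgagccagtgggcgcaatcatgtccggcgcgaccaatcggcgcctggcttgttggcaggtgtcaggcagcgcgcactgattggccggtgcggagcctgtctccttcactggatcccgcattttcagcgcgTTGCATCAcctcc
AARS1, chr16:70289507-70289756, - strand: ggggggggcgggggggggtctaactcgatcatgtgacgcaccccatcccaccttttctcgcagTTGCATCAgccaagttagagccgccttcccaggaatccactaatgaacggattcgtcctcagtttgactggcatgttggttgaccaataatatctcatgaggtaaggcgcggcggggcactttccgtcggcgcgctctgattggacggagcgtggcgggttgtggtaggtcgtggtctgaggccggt

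A promoter sequence was held for 30 of the 35 synthetase genes. The composite element was found in 4 of them, 13.3%, namely AARS1, GARS1, IARS1 and YARS2, and in 2.5% of the 9304 genes above the floor with such a sequence. The E-box was found in MARS2, IARS1 and EARS2, 10% of the 30, against 11.5% of those genes. In MARS2 it began 11 bases before the start, and in IARS1 the composite element began 13 bases before it. These counts describe letters in the windows, not binding.

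The next mitochondrial enzymes below control were NARS2 and RARS2, which charge asparagine and arginine tRNAs. NARS2 had a signal of 67.9 with MPA, 117 with guanosine, 99.9 with both and 107 in the control, close to the floor with MPA, where it was at 0.634 times the control (log2 -0.66). RARS2 had 499.6 with MPA, 755 with guanosine, 815 with both and 768 in the control, a difference of -0.62. Both were lowest with MPA alone, and each rests on a single probe set. IARS2, the isoleucyl enzyme, differed by -0.38 and VARS2, the valyl enzyme, by -0.31, while HARS2 (-0.22), YARS2 (-0.16), FARS2 (-0.12), TARS2 (-0.11) and SARS2 (-0.04) were nearer to control. The VARS2 probe set is of the type that may also bind other transcripts, and its other one above the floor gave -0.10.

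AARS2, the mitochondrial alanyl-tRNA synthetase, went the other way and was the single member more than 1.5-fold above control. Its signal was 199.9 on the MPA array, 123 with guanosine, 132 with both compounds and 116 in the control, 1.72-fold higher with MPA than in the control (log2 0.78). The other AARS2 probe set gave 0.39, again with the MPA array on top of the 4 but short of 1.5-fold. WARS2, for tryptophan, had 293 with MPA, 238 with guanosine, 252 with both and 233 in the control. It was above control by 0.33, and its other probe sets above the floor gave 0.44 and 0.32. EARS2 (0.28), PARS2 (0.18), CARS2 (0.18) and LARS2 (0.16) completed the 6 mitochondrial genes above control, and the MPA array was the highest of the 4 for each of these except PARS2. The other EARS2 probe set above the floor gave 0.03.

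Among the cytosolic enzymes, the subunits of phenylalanyl-tRNA synthetase stood low together. FARSA, its alpha subunit, had a signal of 203 with MPA, 285 with guanosine, 304 with both and 294 in the control, and FARSB, its beta subunit, had 1445 with MPA, 1814 with guanosine, 1839 with both and 2069.7 in the control. The MPA array was the lowest for both, with log2 differences from control of -0.53 and -0.52, and the 4 probe sets of FARSB above the floor ranged from -0.73 to -0.40. HARS1, the histidyl enzyme, had 1054 with MPA, 1270.3 with guanosine, 1392 with both and 1439.7 in the control for a log2 difference of -0.45, with -0.53 and -0.42 for its other probe sets.

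The enzymes of the multisynthetase complex were lower with MPA in 7 of 7 cases, with a median of -0.19, where 49.1% of all genes were lower. After cyclic loess 5 of 7 were lower, with EPRS1 and IARS1 just above control, and 3 of the 4 IARS1 probe sets were just above control on the values as deposited. Beside MARS1, the values as deposited placed QARS1 at -0.23, KARS1 at -0.20, RARS1 at -0.19, LARS1 at -0.14, the glutamyl and prolyl enzyme EPRS1 at -0.05 and IARS1 at -0.03. QARS1, for glutamine, had a signal of 1069.9 with MPA, 1285 with guanosine, 1317 with both and 1256 in the control. The scaffold gene AIMP1 differed by -0.18. Outside the complex, VARS1 had 296 with MPA, 317 with guanosine, 306 with both and 347 in the control, a difference of -0.23, and CARS1 (-0.22), YARS1 (-0.20) and GARS1 (-0.18) lay close to it, while WARS1 (-0.05) and NARS1 (-0.03) were nearer to 0.

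SARS1 and AARS1 were the 2 cytosolic genes above control. SARS1, the seryl enzyme, had a signal of 2294 with MPA, 1797 with guanosine, 1767 with both and 1964 in the control, with the MPA array the highest of the 4 (log2 0.22 over control). AARS1, for alanine, had 714 with MPA, 729 with guanosine, 718 with both and 663 in the control, and all 3 treated arrays were above the control. For TARS1, the threonyl enzyme, the value depended on the probe set. The one with the highest mean gave -0.02, at 2550.3 with MPA and 2578 in the control, and the other 2 gave -0.56 and -0.58, at 1726 with MPA against 2539.5 in the control and 1497 with MPA against 2244 in the control. Those 2 are of types that may bind transcripts of related genes, and which probe set follows TARS1 was not tested. The main probe sets of FARSB, EARS2, IARS2 and YARS1 are of such a type too, and IARS2 and YARS1 have no other.

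**Figure D2:**
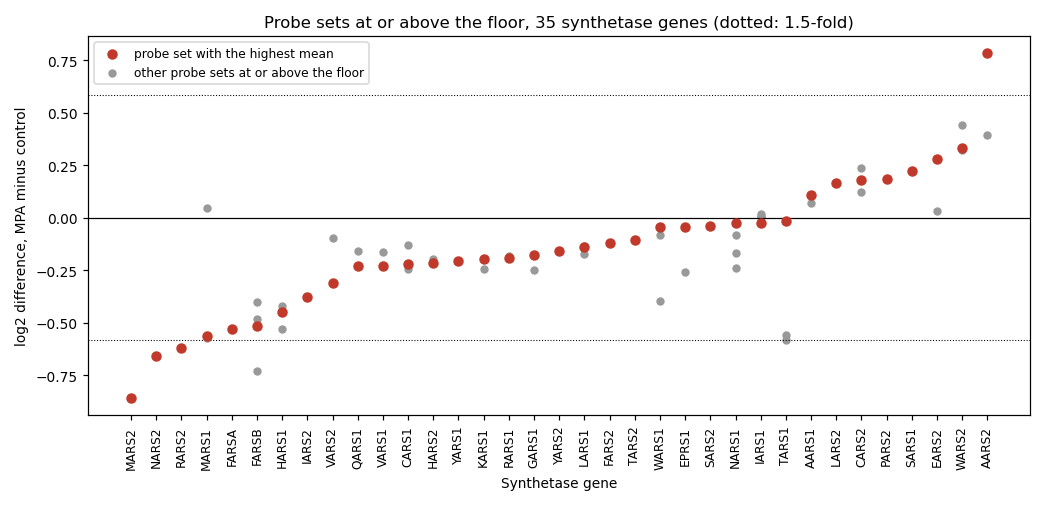
Log2 difference of MPA minus control for every probe set above the floor, by gene in order of its main value. Red points are the probe sets that represent the genes and grey points are the others, with dotted lines at 1.5-fold. Grey points lie far from the red ones for TARS1 and for 1 MARS1 probe set, which stands at 0.04.

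Of the 35 genes, 23 had at least 2 probe sets above the floor. For 21 of these, all their probe sets differed in 1 direction between MPA and control. The exceptions were MARS1, described above, and IARS1, whose 4 probe sets lay between -0.03 and 0.02. Within 1 direction the sizes could still differ, as for WARS1, from -0.40 to -0.05, NARS1, from -0.24 to -0.03, and EPRS1, from -0.26 to -0.05. The other 12 genes, among them MARS2, NARS2, RARS2 and FARSA, had only 1.

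Cytosolic enzymes linked to ATF4 were set beside the rest of the cytosolic set. The split was made with earlier results of these data known, so it describes these values and is no test of them. The 13 linked genes had a median of -0.05 with MPA, 11 lower and 2 higher, and the 6 others, FARSA, FARSB, HARS1, KARS1, QARS1 and RARS1, had a median of -0.34 with all lower. Over all genes compared, 49.1% were lower, or 45.1% after cyclic loess. After cyclic loess the linked genes turned to a median of 0.03, 6 lower and 7 higher, so that their direction with MPA depends on the scaling, while the others stayed lower in 6 of 6 with a median of -0.26. The split of cytosolic enzymes into structural classes gave -0.20 for the 9 class I genes and -0.18 for the 9 class II genes, with EPRS1, which holds an enzyme of each class, left out.

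With guanosine alone the synthetases lay close to control. None of the synthetases differed by 1.5-fold (0 higher and 0 lower), where 0.339% of all genes were at least 1.5-fold higher and 0.11% lower. Of the 35, 21 were higher by any amount, against 49.4% of all genes, with medians of 0.03 for cytosolic and 0.03 for mitochondrial genes. The highest differences were those of HARS2 (0.35), MARS1 (0.33) and WARS1 (0.26), though another bright MARS1 probe set gave 0.02. The lowest were FARSB (-0.19), SARS2 (-0.19) and VARS2 (-0.19).

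Most of the cytosolic genes linked to ATF4 were above control. They were higher with guanosine in 10 of 13 cases with a median of 0.14, and the other cytosolic genes in 1 of 6 with a median of -0.08. Over all genes compared, 49.4% were higher. Because the lists were chosen with earlier results of these data known, this contrast is a description only. WARS1, the tryptophanyl enzyme, had a signal of 844 with MPA, 1045 with guanosine, 1019.6 with both and 871 in the control. Both arrays with guanosine were above both arrays without it. Over the ATF4-linked genes this order held for 10 of 13, 76.9%, over the other cytosolic genes for 1 of 6, over the mitochondrial ones for 5 of 16, 31.2%, and over all 11272 genes for 24.7%. After cyclic loess it held for 7 of 13 linked genes, 53.8%, and 20.3% of all genes. The opposite order, with both guanosine arrays lowest, was seen for SARS1, CARS2, LARS2 and SARS2, 11.4% of the 35, against 21.9% of all genes. Among the ATF4-linked genes EPRS1 had 648 with MPA, 772 with guanosine, 726 with both and 668 in the control, and IARS1 had 3670.1 with MPA, 4385 with guanosine, 4104 with both and 3735 in the control. GARS1, the glycyl enzyme, had 2718 with MPA, 3417 with guanosine, 3372 with both and 3079 in the control. The SARS1 values were given above and ran the other way. RMA as usually run normalises arrays together, which would tie the 4 values of a gene to one another, and its settings here are not given in the sources used.

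Amino acid response genes were measured beside them. Of 23 such genes, 14 were higher and 8 lower with guanosine, CHAC1 being equal, with a median of 0.12, where 49.4% of all genes were higher. ATF4 itself had a signal of 2270.0 with MPA, 3931 with guanosine, 4006 with both and 3026 in the control, so that the guanosine array was above control by 0.38 and the MPA array differed by -0.41. ASNS, the asparagine synthetase, was higher with guanosine by 0.73, NUPR1 by 0.80 and the lipoprotein receptor gene VLDLR by 0.55. DDIT3, a stress transcription factor, was lowest at -0.25, followed by SLC3A2 at -0.11 and TRIB3 at -0.10. With MPA the list divided, with 4 genes above control by 1.5-fold or more and 4 below it by as much, beside 5.31% and 7.31% of all genes. DDIT3 (1.29), ATF3 (1.02) and NUPR1 (0.96) were above control, and VLDLR (-1.04), the glutamine carrier gene SLC1A5 (-1.0) and the serine synthesis gene PSPH (-0.66) below it, for a median of -0.11 and 14 of 23 lower. The other ATF3 probe set above the floor gave 0.46, and those of SLC1A5 ran from -1.0 to -0.35.

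**Figure D3:**
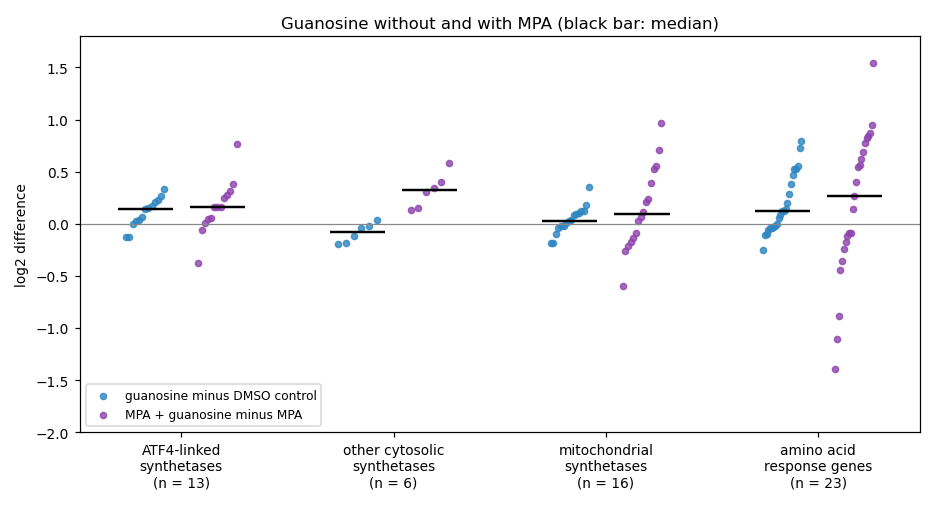
Log2 difference made by guanosine in cells without MPA (blue, guanosine minus DMSO control) and with MPA (purple, both compounds minus MPA) for 3 groups of synthetases and for amino acid response genes. Each point is 1 gene and black bars are medians, which for guanosine minus control were 0.14, -0.08, 0.03 and 0.12 from left to right.

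The histidyl enzymes show how far neighbouring genes can differ. HARS1 and HARS2 lie head to head on chromosome 5, and 84 bases separate their annotated starts, shown here because both genes are read away from this stretch, HARS2 on the strand printed and HARS1 on the other. No capitals mark it, since it holds neither motif.
HARS1 to HARS2, chr5:140691371-140691454, + strand: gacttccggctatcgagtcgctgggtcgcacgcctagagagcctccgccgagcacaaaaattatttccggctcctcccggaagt
HARS2 had a signal of 252 with MPA, 375 with guanosine, 364 with both and 293 in the control, so that both guanosine arrays were above the control and the MPA array was below it. HARS1, with the values given above, was highest in the control. With guanosine alone HARS2 differed by 0.35 and HARS1 by -0.18, and the second HARS2 probe set gave 0.28 against -0.24 and -0.20 for the other HARS1 probe sets. With MPA alone both were below control, HARS2 at -0.22 and HARS1 at -0.45.

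The effect of adding MPA to guanosine was read from the arrays of both compounds and of guanosine, neither of which entered the comparison of MPA with control. The cytosolic median was -0.02 and the mitochondrial one 0.01. Of the 35, 16 were higher, 6 of 19 cytosolic and 10 of 16 mitochondrial, against 58.8% of all genes. None differed by 1.5-fold (0 higher and 0 lower), where 0% of all genes were at least 1.5-fold higher and 0.0184% lower. All lay between -0.22 for NARS2 and 0.23 for PARS2, the mitochondrial prolyl enzyme, whose signals lay near the floor. After NARS2 the lowest were MARS1 (-0.14) and IARS1 (-0.10), and after PARS2 the highest were HARS1 (0.13) and RARS2 (0.11). FARSA, at -0.53 with MPA alone, differed by 0.09 here, and AARS2, higher by 0.78 with MPA alone, by 0.10.

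**Figure D4:**
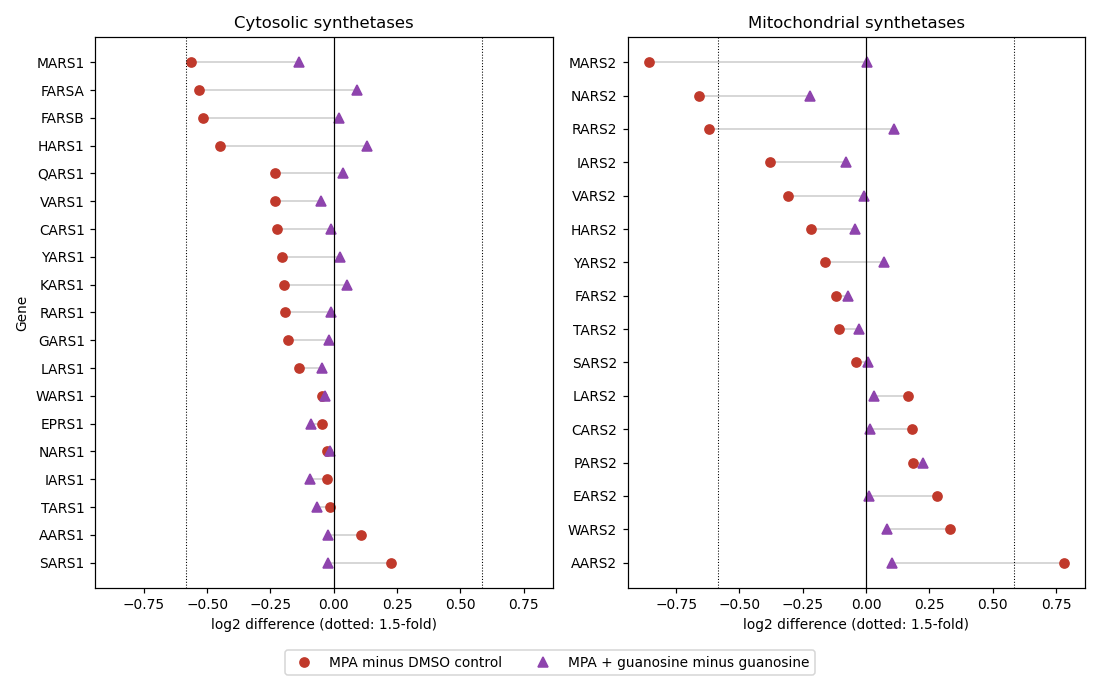
Log2 difference of MPA minus DMSO control (red circles) and of MPA + guanosine minus guanosine (purple triangles) for each synthetase gene, joined by grey lines, with dotted lines at 1.5-fold. The red points run from -0.86 for MARS2 to 0.78 for AARS2, and the purple ones from -0.22 to 0.23.

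The effect of adding guanosine to MPA was read from the array of both compounds and the MPA array. The MPA array is in this comparison and in MPA against control, so the values of the 2 are not independent. Of the 19 cytosolic genes 17 were higher with both compounds, with a median of 0.16, and of the 16 mitochondrial genes 10, with a median of 0.09, against 51.8% of all genes. After cyclic loess 14 of 19 and 9 of 16 were higher, with medians of 0.08 and 0.10 and one of -0.04 over all genes. Past 1.5-fold were 3 synthetases above and 1 below, beside 8.47% and 4.77% of all genes. MARS2 (0.96), MARS1 (0.76) and RARS2 (0.71) were the highest. AARS2 (-0.60), SARS1 (-0.38) and CARS2 (-0.26) were the lowest. On its second probe set MARS1 gave 0.76, but on its other bright one -0.06, which is also its value when the median of all its probe sets is taken.

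Guanosine without MPA and guanosine with MPA share no array. Across the 35 genes, which are not independent replicates, the 2 differences correlated at r = 0.32, against 0.18 over all 11272 genes. By rank the correlation was 0.30 over the 35, against 0.20 over all genes. It was 0.19 over the cytosolic genes and 0.38 over the mitochondrial ones. MARS1 was higher by 0.33 without MPA and by 0.76 with it, HARS2 by 0.35 and 0.53, and WARS1 by 0.26 and 0.27. Another bright MARS1 probe set gave 0.02 and -0.06. SARS1 was lower in both, at -0.13 and -0.38, while FARSB was at -0.19 and 0.35.

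Cells given both compounds were also set beside those given DMSO. Of the 35 genes 22 were higher, against 54.1% of all genes, and 0 passed 1.5-fold in either direction, where 0.421% of all genes were at least 1.5-fold higher and 0.137% lower. The cytosolic median was 0.05 and the mitochondrial one 0.08. HARS2 (0.31), PARS2 (0.25) and WARS1 (0.23) were the highest. VARS2 (-0.20), SARS2 (-0.18) and VARS1 (-0.18) were the lowest, with the valyl enzymes of both compartments among them.

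**Figure D5:**
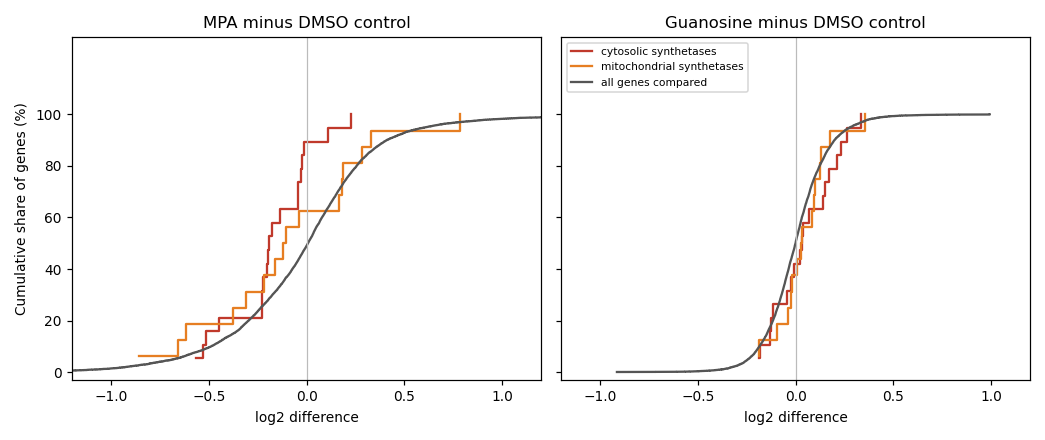
Cumulative share of genes against log2 difference for cytosolic synthetases, mitochondrial synthetases and all genes compared, for MPA minus control on the left and guanosine minus control on the right. With MPA, the cytosolic curve lies left of all genes around its median of -0.19 and holds no gene beyond -0.57 or 0.22, while the mitochondrial curve reaches -0.86 and 0.78.

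Genes that work beside the synthetases were listed with them. Of the mitochondrial charging partners, GATB, GATC and QRSL1, which amidate glutamate on glutamine tRNA, and MTFMT, which formylates the initiator, all 4 were above control with MPA, from 0.06 for GATC to 0.19 for GATB, though a dimmer QRSL1 probe set gave -0.36 and one of MTFMT -0.05. The factors that bring charged tRNA to the ribosome lay between -0.23 for EEF1B2 and 0.01 for EEF1G, 4 of 6 lower, or 3 of 6 after cyclic loess. Over all genes compared, 49.1% were lower, or 45.1% after cyclic loess. Probe sets of TSFM above the floor ran from -0.21 to 0.18, and those of EEF1A1 from -0.04 to 0.35. Editing and selenocysteine genes ran from -0.19 for PSTK to 0.09 for DTD2. None of these genes reached 1.5-fold. AIMP2, EEF1E1, AARSD1 and RPP21 were not analysed here, and RPP25 was below the floor on all arrays.

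Genes of tRNA maturation and export were lower with MPA in 15 of 19 cases, with a median of -0.24, and 3 of them were at least 1.5-fold lower, where 49.1% of all genes were lower and 7.31% by 1.5-fold. TRNT1 was counted as lower at -0.42, though its probe sets above the floor ran from -0.60 to 0.85. After cyclic loess the same number, 15 of 19, were lower and 1 passed 1.5-fold. XPOT, the carrier that takes mature tRNA out of the nucleus, had a signal of 1218 with MPA, 2140.4 with guanosine, 2009.9 with both and 1864 in the control. It was lowest with MPA (log2 -0.61 against control), and its highest values were on the 2 arrays with guanosine. POP7, a subunit of RNase P and RNase MRP, had 1167 with MPA, 1595 with guanosine, 1635 with both and 1793 in the control, with every treated array below the control. ELAC1, which trims tRNA ends, differed by -0.78 and was under the floor with MPA. POP5 (0.34), RPP40 (0.10) and RPP38 (0.08) were the highest of the list. With guanosine alone 5 of these 19 were higher, against 49.4% of all genes, XPOT the most at 0.20, and the median was -0.06.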

How the data were processed

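Expression was measured on 4 PrimeView arrays, 1 per condition. The deposited values are RMA intensity signals per probe set on the linear scale, per the labels, which give neither software nor settings; background correction, normalisation between arrays and summarising over probes, which RMA comprises, limit what can be checked here. Log2 was taken of the 49395 values per array. Of these probe sets 102 were controls, 44988 others had 1 gene symbol in the platform annotation, 1832 several and 2473 none, and those with 1 symbol gave 18132 genes. A gene took its probe set with the highest mean, and entered a comparison where the brighter array reached the median of non-control values. Differences past 1.5-fold were counted. No test was possible with 1 array per condition, and array number, not counting error, limits the precision. The members and all gene lists were chosen with earlier results of these data known. Named were cytosolic and mitochondrial members past 1.5-fold with MPA, filled up to 6 and 4 by size, the 3 highest and 3 lowest members of other comparisons, and the extremes of each related list; ATF4, WARS1, EPRS1, IARS1, GARS1, SARS1, AARS1, WARS2, HARS2, TARS1 and XPOT were given array by array after their values were seen. Promoter letters came from RefSeq (GRCh38.p14). The scripts were tested on simulated data. Python 3.11.15, pandas 2.3.3 and, for cyclic loess, limma 3.58.1 in R 4.3.3 were used. Alternatives were the probe set rule, the floor, the normalisation, the fold and the comparison array.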

Additional observations from a re-analysis of the deposited data

How the results depend on the processing

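No paired analysis was possible because each condition had 1 array. Of 111 medians recomputed under the alternatives, 108 moved by less than 0.10, the SD of single genes between the most alike arrays, and 3 by more. Among the 111, 7 changed sign, all from medians or differences of medians under 0.10 in size. Some of the 111 could not move. The 15 taken without a floor repeated the main medians, as all 35 genes were above the floor on every array. Centring the arrays could not change a cytosolic minus mitochondrial difference. Of the counts past the fold 81 stayed within 1.5 times and 13 did not. Many of the 81 could not move either. Counts taken without a floor repeated the main ones. Counts of 0 in the main setting had to stay 0 at 2-fold, with a stricter floor and over genes whose probe sets differ in 1 direction. These add to the 81 without being a check. Cyclic loess took the MPA against control medians to -0.12 (cytosolic) and -0.046 (mitochondrial), against -0.19 and -0.11 in the main setting, and the synthetases at least 1.5-fold lower to 2. The mitochondrial median with guanosine, 0.03 in the main setting, was -0.0046 with median values over probe sets. With MPA against control, the synthetases at least 1.5-fold lower, 3 in the main setting, numbered 1 with the floor at the 75th percentile, and at other fold limits 8 (a lower limit, log2 0.32) and 0 (2-fold). Those higher, 1 in the main setting, numbered 0 with that floor, 2 at the lower limit and 0 at 2-fold. With guanosine against control 2 were higher at the lower limit. With both compounds against MPA, the 3 higher became 1 with median values over probe sets, 10 at the lower limit and 0 at 2-fold, and the 1 lower became 0 with the floor at the 75th percentile, 2 at the lower limit and 0 at 2-fold. In that comparison the mitochondrial median, 0.09 in the main setting, was 0.21 with the floor at the 75th percentile and 0.21 over genes whose probe sets differ in 1 direction, and the cytosolic minus mitochondrial median, 0.07 in the main setting, was -0.042 with that floor, -0.016 with cyclic loess and 0.00099 over genes whose probe sets differ in 1 direction. The stricter floor, the single-direction rule and the median values over probe sets leave fewer genes. The cause of these moves was not otherwise tested. With median values, 18 cytosolic and 12 mitochondrial genes were compared for MPA against control and for guanosine against control. MARS2 left the count for both compounds against MPA because the median of its probe sets was below the floor. MARS1 with both compounds against MPA was -0.056 with the median of its probe sets, against 0.76 in the main setting. Of 350 values of single genes recomputed with cyclic loess or median values over probe sets, 298 moved by less than 0.10 and the others by more. FARSA, SARS1, YARS1, IARS2, LARS2, NARS2, RARS2 and YARS2 have a single probe set. Their median values are the main values and could not move, so they add to the 298 without being a check. Of the 350, 36 changed sign, 14 with cyclic loess and 22 with median values. The 22 include MARS1 with MPA (0.04, against -0.57 in the main setting), TARS1 with both compounds against MPA (0.51, against -0.06) and, with guanosine, AARS2 (-0.13, against 0.08) and EARS2 (-0.016, against 0.18). Only MARS1 with both compounds against MPA changed sign from a value past 1.5-fold. With 1 array per condition, differences between arrays cannot be told apart from those between treatments.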
